A study of Caenorhabditis elegans with 6 samples.

Results

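The lysozyme, saposin-like and caenacin genes of *C. elegans* encode small secreted or lysosomal proteins, many of which act on bacteria or fungi. They were taken as every row of the gene table whose name begins with *lys-*, *ilys-*, *spp-* or *cnc-* and a number. This gave 50 of 28641 genes, namely 10 *lys*, 6 *ilys*, 23 *spp* and 11 *cnc* genes. RNA of whole worms at the L4 stage, the last larval stage, was sequenced in 3 libraries of wild type worms (WT, strain Bristol N2) and 3 libraries of *alh-4(-)* worms, which are Bristol N2 worms with the *hj221* deletion. The *alh-4* gene encodes a fatty aldehyde dehydrogenase. Both genotypes were untreated and synchronized and were grown at 20 °C on *E. coli* OP50, the usual laboratory food, and no pathogen was given. Each library came from whole worms of 1 biological replicate, and the mutant was represented by this 1 allele. The study sequenced these worms to find what *alh-4(-)* worms change in gene expression, and the comparison made here asks whether antimicrobial genes are part of it.

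Lysozymes cut the peptidoglycan wall of bacteria. Worms have a protist-type family (*lys*) and an invertebrate-type family (*ilys*), and the intestine, which is both the digestive tract and the main barrier to ingested microbes, is a known site of several of them. Saposin-like proteins (*spp*) include the caenopores, which open pores in bacterial membranes, and also relatives of the lysosomal saposins that help to degrade lipids. Caenacins (*cnc*) are short glycine-rich peptides of the epidermis, and *cnc-2* is known to be induced there by the fungus *Drechmeria coniospora* through the TGF-β ligand DBL-1.

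Values are FPKM, fragments per kilobase of exon and scaled to the mapped fragments of a library, which can be compared between genes because length is already divided out. They summed to between 3310620 and 3364265 per library. These sums are not read numbers, and the depth of each library is unknown. The FPKM of *alh-4* was 352, 291 and 336 in WT and 33.7, 24.6 and 35.2 in *alh-4(-)* replicates 1, 2 and 3, which fits the labels. Replicate 1 of each genotype listed fewer genes above 0 (19102 in WT and 17623 in *alh-4(-)*) than the other 4 libraries (21058 to 22670), and results are given without these 2 libraries where that changes a call. In whole worms, fewer cells of a type and less RNA per cell cannot be told apart.

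The members spanned almost the whole range of expression in the worm. Averaged over the 6 libraries, 3 members exceeded 1000 FPKM, 4 lay between 100 and 1000, 22 between 10 and 100, and 10 between 1 and 10. A further 8 were above 0 but below 1 FPKM, and *ilys-1*, *cnc-1* and *cnc-7* were listed at 0 in every library. One gene dominated. The invertebrate-type lysozyme gene *ilys-5* held between 66.7% and 85% of the summed FPKM of all members and was among the most abundant of all genes, with rank 5, 12 and 4 in WT and rank 15, 18 and 17 in *alh-4(-)* replicates 1, 2 and 3. Below it came *lys-1* (4333 to 7008 FPKM over the 6 libraries), *lys-4* (1390 to 2726) and *lys-2* (244 to 1254). The lysozyme gene *lys-8* followed at 329 to 461 FPKM. The values of *lys-1* and *lys-4* did not overlap with each other, while those of *lys-2* and *lys-8* did.

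**Figure D1:**
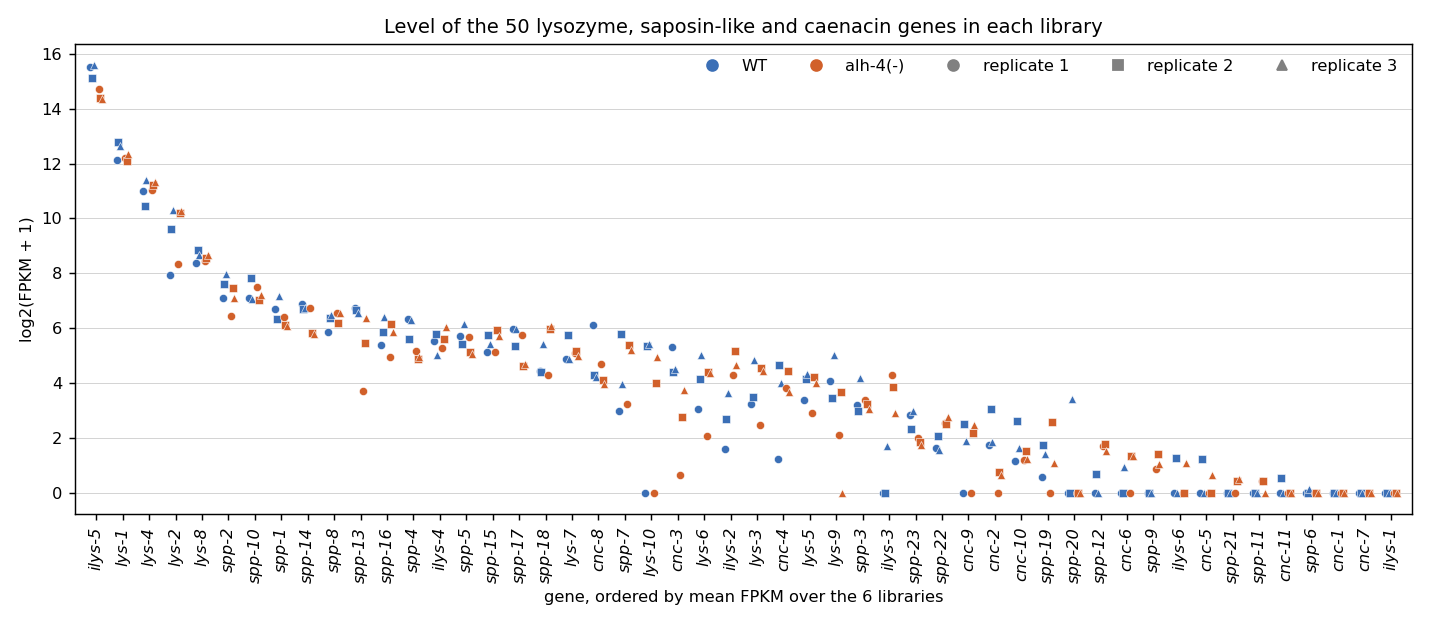
Level of each of the 50 genes in each library on the log2(FPKM + 1) scale (y axis), with genes ordered by their mean FPKM (x axis), colour giving the genotype and marker shape the replicate number. *ilys-5* stands above all others in every library, and the 3 genes at the right end are listed at 0 throughout.

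The genotypes were compared gene by gene with limma on log2(FPKM + 1), over the 16225 genes with a mean of at least 1 FPKM, of which 39 were members (10 *lys*, 4 *ilys*, 19 *spp* and 6 *cnc*). Because of the added 1, differences of genes with low FPKM come out too small. By an adjusted p under 0.05 (Benjamini-Hochberg over all tested genes), 0 of the 39 members differed, against 23 genes or 0.142% of all tested genes. At an unadjusted limma p under 0.05 there were 11 of 39 members, 4 higher (3.12% of all tested genes) and 7 lower (1.84%) in *alh-4(-)* worms, against 4.97% of all tested genes in either direction. The study's thresholds, a fold change over 2 with an unadjusted p under 0.05, were passed by 8 members, 3 upwards (1.54% of all tested genes) and 5 downwards (1.37%), against 2.92% in either direction. Below, "rose" and "fell" refer to these thresholds, and none of these changes holds after adjustment over all genes.

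The 3 members that rose were *ilys-3*, *ilys-2* and *spp-12*, and the 5 that fell were *cnc-3*, *lys-9*, *cnc-2*, *spp-13* and *spp-4*. For *ilys-3*, *spp-12* and *cnc-2* the mean was under 1 FPKM in one genotype, so they entered the test only through the other. Among the 35 tested members with a mean of at least 1 FPKM in both genotypes, 5 passed the thresholds, against 2.39% of all such genes. The median log2 fold change was -0.25 over the 39 members and 0.07 over all tested genes, and 26 of the 39 members had a negative value, against 42% of all tested genes. By family it was -0.17 for *lys*, 1.13 for *ilys*, -0.25 for *spp* and -0.56 for *cnc*. The *lys* median was positive without *alh-4(-)* replicate 1 (0.23) and with array quality weights (0.08). The *ilys* median rests on 4 genes, including *ilys-3*, and was 0.20 both without the filter and with a filter at 10 FPKM. In 10 of the 39 members the libraries of the genotypes did not overlap, 4 higher (5.97% of all tested genes) and 6 lower (3.25%) in *alh-4(-)* worms, against 9.21% in either direction. For each of these 10 the two-sided exact permutation p was 0.1, the smallest that 3 libraries against 3 allow.

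**Figure D2:**
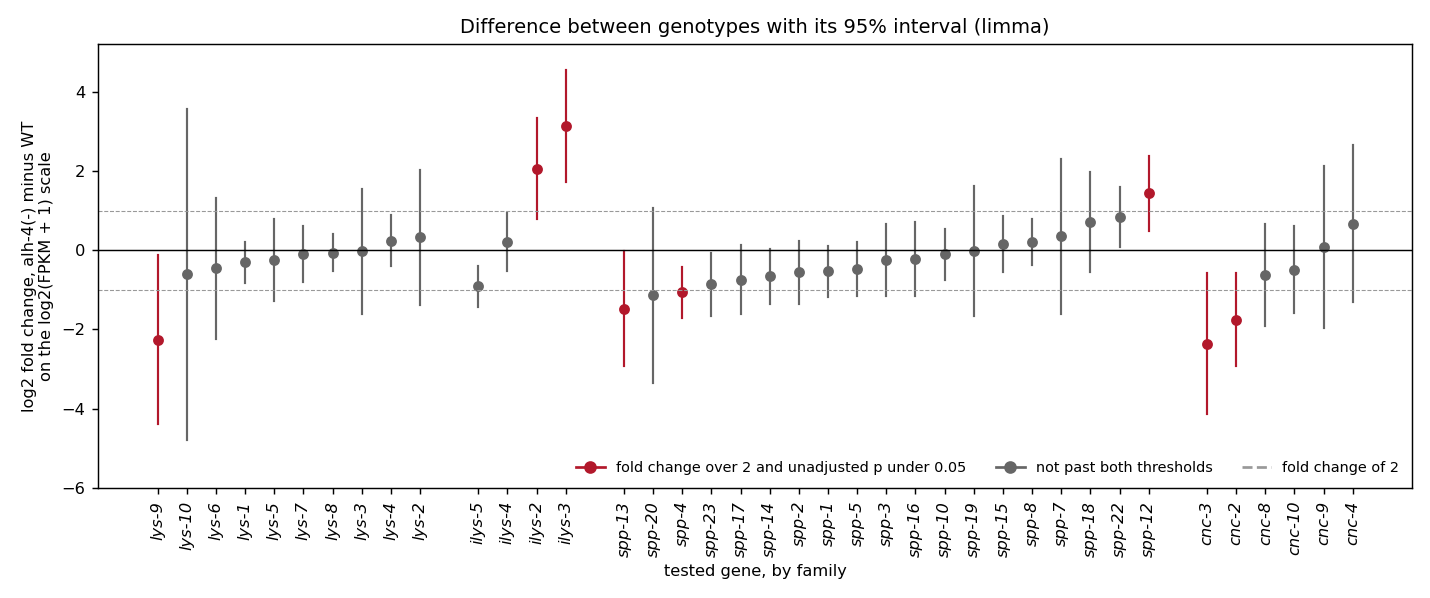
Log2 fold change of *alh-4(-)* against WT for the 39 tested genes (y axis, log2(FPKM + 1) scale) by family (x axis), with points for the limma estimate and bars for its 95% interval. Red marks the 8 genes past a fold change of 2 and an unadjusted p under 0.05, with *ilys-3* and *ilys-2* highest and *cnc-3* and *lys-9* lowest, and dashed lines mark a fold change of 2.

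Among the invertebrate-type lysozymes, *ilys-3* and *ilys-2* rose from low levels, while the most abundant gene was lower in every *alh-4(-)* library. The FPKM of *ilys-3*, a lysozyme gene known to act in the defence against Gram-positive bacteria, was 0, 0 and 2.26 in WT and 18.7, 13.3 and 6.59 in *alh-4(-)* replicates 1, 2 and 3. No WT library reached the lowest *alh-4(-)* library. The log2 fold change was 3.12 (standard error 0.60, unadjusted p = 0.00116 and adjusted p = 0.244 from limma), the largest of any tested member. Its neighbour *ilys-2* had 2.004, 5.46 and 11.5 FPKM in WT against 18.4, 34.5 and 24.4 FPKM in *alh-4(-)* worms. These values did not overlap either and the log2 fold change was 2.06 (standard error 0.54, unadjusted p = 0.00631 and adjusted p = 0.504 from limma). Both kept their direction and stayed past the thresholds in every alternative in which they were tested, 14 for *ilys-3* and 15 for *ilys-2*.

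The most abundant member, *ilys-5*, had 47111, 35251 and 49029 FPKM in WT against 26791, 21656 and 21194 FPKM in *alh-4(-)* replicates 1, 2 and 3. All WT libraries lay above all *alh-4(-)* libraries, and the means were 43797 ± 7463 and 23214 ± 3107 (SD, n = 3 each), a ratio of 1.89. The log2 fold change of -0.91 (standard error 0.22, 95% interval -1.42 to -0.40, unadjusted p = 0.00393 and adjusted p = 0.442 from limma) did not reach the study's fold change of 2. It did pass both thresholds in 4 of 15 alternatives, namely upper quartile scaling (-1.15), array quality weights (-1.01), without WT replicate 2 (-1.06) and without *alh-4(-)* replicate 1 (-1.02). Because of this gene the summed FPKM of all 50 members was 46294 to 61316 in WT and 31089 to 35205 in *alh-4(-)* worms. Without *ilys-5* the sums overlapped, at 8320 to 12287 and at 8414 to 10588.

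The remaining *ilys* genes gave no such difference. The FPKM of *ilys-4* was 45.2, 53.7 and 31.4 in WT and 37.3, 48.2 and 65.4 in *alh-4(-)* worms. The libraries were interleaved, with a log2 fold change of 0.20 (95% interval -0.52 to 0.93), and *ilys-4* overlaps *atic-1* on the other strand in the current annotation. *ilys-6* did not exceed 1.42 FPKM in any library and was not tested.

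The libraries of the genotypes overlapped in every protist-type lysozyme gene. Of the 10 *lys* genes, 1 fell and 0 rose, against 1.37% and 1.54% of all tested genes, and 0 had libraries that did not overlap, against 9.21%. The most abundant, *lys-1*, known as an intestinal lysozyme that responds to *Serratia marcescens*, had 4495, 7008 and 6375 FPKM in WT against 4683, 4333 and 5217 FPKM in *alh-4(-)* worms. The ranges overlapped, and the 95% interval of the log2 fold change ran from -0.83 to 0.22 around -0.31. For *lys-8* the values were 329, 461 and 401 in WT and 352, 374 and 402 in *alh-4(-)* worms. The interval of its log2 fold change was the narrowest of the family, from -0.53 to 0.40 around -0.07, so that a change by the study's fold of 2 lies outside it, but *lys-8* overlaps *C17G10.13* on the other strand in the current annotation, and their reads may not have been told apart.

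*lys-7*, a target of the transcription factor DAF-16 that contributes to survival on several pathogens, had 28.5, 53.1 and 28.6 FPKM in WT against 32.9, 34.9 and 30.96 FPKM in *alh-4(-)* worms. Only WT replicate 2 stood above the others, and the interval of the log2 fold change was -0.80 to 0.61 around -0.09. For *lys-4* the values were 2055, 1390 and 2726 in WT and 2083, 2401 and 2564 in *alh-4(-)* worms. WT replicate 2 was the lowest library and WT replicate 3 the highest, so the genotypes overlapped (log2 fold change 0.24, 95% interval -0.40 to 0.88).

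*lys-9* was the only *lys* gene past the thresholds. It had 15.9, 10.1 and 31.7 FPKM in WT, 3.36 and 11.9 FPKM in *alh-4(-)* replicates 1 and 2, and was listed at 0 in *alh-4(-)* replicate 3. Since *alh-4(-)* replicate 2 lay above WT replicate 2, the genotypes overlapped. The log2 fold change was -2.26 (standard error 0.91, unadjusted p = 0.0407 and adjusted p = 0.963 from limma). The call was lost in 9 of 15 alternatives, among them the omission of any 1 library other than *alh-4(-)* replicate 2, where the log2 fold change ran from -2.62 without WT replicate 2 to -1.29 without *alh-4(-)* replicate 3, with unadjusted limma p between 0.0523 and 0.134.

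Several *lys* genes followed the replicate number rather than the genotype. *lys-2* had 244 FPKM in WT replicate 1 and 321 FPKM in *alh-4(-)* replicate 1, below the 779 and 1254 FPKM of the other WT libraries and the 1171 and 1246 FPKM of the other *alh-4(-)* libraries. *lys-10* was listed at 0 in replicate 1 of both genotypes and had 39.9 and 41.9 FPKM in the other WT libraries and 15.2 and 29.6 FPKM in the other *alh-4(-)* libraries. The main fit left this shared difference in the residual spread, and its intervals were wide. They ran from -1.38 to 2.03 for *lys-2* and from -4.78 to 3.57 for *lys-10*. That fit alone could thus not exclude a difference by the study's fold of 2 in either direction. Blocking on replicate left the log2 fold changes at 0.33 for *lys-2* and -0.61 for *lys-10*. The unadjusted limma p went from 0.666 to 0.119 for *lys-2* and from 0.741 to 0.135 for *lys-10*. Intervals of the blocked fit are not given. Replicate 1 was the lowest library of both genotypes in 6 of the 10 *lys* genes and in 15 of the 39 tested members, against 38% of all tested genes, and the highest of both in 3 members, against 8.52%. The shares over the 39 members were thus close to those of all genes. Without both replicate 1 libraries, 8 of the tested members passed the study's thresholds, but so did 774 of all tested genes, or 4.64% against 2.92% with all libraries. Of the 8 members 6 were among those found with all libraries, *lys-9* (-2.41) and *spp-13* (-0.70) no longer passed, and *spp-17* (-1.01) and *spp-18* (1.13) passed in addition.

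The saposin-like genes were expressed at intermediate levels, with *spp-2*, *spp-10* and *spp-1* at the top. Of the 19 tested *spp* genes, 1 rose and 2 fell, against 1.54% and 1.37% of all tested genes. The 1 that rose, *spp-12*, had a mean of 0.20 FPKM in WT and entered the test only through *alh-4(-)* worms. A negative log2 fold change was found in 13 of the 19, against 42% of all tested genes. *spp-4* had 78.9, 47.9 and 76.7 FPKM in WT against 35.3, 28.3 and 30.04 FPKM in *alh-4(-)* worms. The genotypes did not overlap, and the log2 fold change was -1.07 (standard error 0.27, unadjusted p = 0.00513 and adjusted p = 0.495 from limma). It was just short of a fold change of 2 without WT replicate 1 (-0.94) and without WT replicate 3 (-0.96).

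*spp-13* had 106, 101 and 92.7 FPKM in WT against 12.1, 42.8 and 82.2 FPKM in *alh-4(-)* replicates 1, 2 and 3. The WT libraries were tightly grouped, while the *alh-4(-)* libraries spread by a factor of 6.77, from far below WT to just below it. The log2 fold change was -1.48 (standard error 0.61, unadjusted p = 0.0465 and adjusted p = 0.993 from limma). The call was lost in 10 of 15 alternatives. It was lost without any 1 library other than *alh-4(-)* replicate 3, at -1.43, -1.47 and -1.53 without WT replicates 1, 2 and 3 and at -1.61 without *alh-4(-)* replicate 2, and without *alh-4(-)* replicate 1 the log2 fold change was -0.74. The annotation places a tRNA gene and a noncoding RNA gene that overlap *spp-13*, and reads of these could not be told apart here.

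*spp-12*, known for a role in the defence against *Bacillus thuringiensis* and for expression in pharyngeal neurons, was close to 0 in WT, where it was listed at 0 in replicates 1 and 3 and at 0.609 FPKM in replicate 2. It had 2.22, 2.40 and 1.88 FPKM in *alh-4(-)* worms. All *alh-4(-)* libraries were higher, with a log2 fold change of 1.43 (standard error 0.40, unadjusted p = 0.00857 and adjusted p = 0.575 from limma). The low *spp-9* showed the same arrangement, at 0 in all WT libraries and at 0.817, 1.67 and 1.05 FPKM in *alh-4(-)* worms, but its mean was below the filter, and without the filter its log2 fold change was 1.11 (unadjusted p = 0.000602 and adjusted p = 0.203 from limma). For comparison, 10 neuronal marker genes had summed FPKM of 302 to 633 in WT and 375 to 561 in *alh-4(-)* worms, and 0 of the 9 tested had an unadjusted limma p under 0.05.

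*spp-22* and *spp-23* had libraries that did not overlap but a fold change under 2 on the log2(FPKM + 1) scale. Without the added 1, the genotype means differed by a factor of 2.11 for *spp-22* and 2.17 for *spp-23*. The FPKM of *spp-22* was 2.13, 3.17 and 1.97 in WT and 4.87, 4.69 and 5.77 in *alh-4(-)* worms (log2 fold change 0.85, 95% interval 0.09 to 1.61), and a pair of noncoding RNA genes overlaps it in the annotation. For *spp-23* the values were 6.22, 4.04 and 6.95 in WT and 3.01, 2.61 and 2.31 in *alh-4(-)* worms (log2 fold change -0.87, 95% interval -1.65 to -0.08). With a pseudocount of 0.1 both passed the thresholds, at 1.07 for *spp-22* and -1.06 for *spp-23*, and *spp-23* also passed with upper quartile scaling and without WT replicate 2 (-1.06 in each). The neighbour of *spp-23* on chromosome I, *spp-17*, had 61.6, 39.9 and 61.7 FPKM in WT against 52.8, 23.6 and 24.8 FPKM in *alh-4(-)* worms, where replicate 1 lay within the WT range. Its log2 fold change was -0.74 with all libraries, and without *alh-4(-)* replicate 1 it was -1.11 (unadjusted p = 0.00629 and adjusted p = 0.334 from limma).

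The caenopore genes *spp-1* and *spp-5*, whose products kill bacteria by opening their membranes, were not called. *spp-1* had 103.6, 79.6 and 143 FPKM in WT against 84.4, 68.0 and 66.3 FPKM in *alh-4(-)* worms, and only *alh-4(-)* replicate 1 reached into the WT range. The log2 fold change was -0.54 (95% interval -1.17 to 0.09). *spp-5* had 51.9, 41.7 and 69.9 FPKM in WT against 50.8, 34.01 and 31.9 FPKM in *alh-4(-)* worms, again with *alh-4(-)* replicate 1 within the WT range and a log2 fold change of -0.47 (95% interval -1.17 to 0.22). *spp-14* had the same arrangement, at 116, 103 and 107 FPKM in WT against 105, 56.3 and 53.7 FPKM in *alh-4(-)* worms.

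The other abundant *spp* genes were interleaved. *spp-10* had 138, 227 and 134 FPKM in WT against 179, 128 and 148 FPKM in *alh-4(-)* worms, with a log2 fold change of -0.10 (95% interval -0.74 to 0.54). *spp-2* had 136, 193 and 251 FPKM in WT against 85.9, 175 and 137 FPKM in *alh-4(-)* worms, with a log2 fold change of -0.56 (95% interval -1.36 to 0.24). *spp-8* had 56.6, 81.5 and 87.8 FPKM in WT against 93.3, 72.1 and 93.5 FPKM in *alh-4(-)* worms, with a log2 fold change of 0.21. In each of these genes the libraries of the genotypes overlapped. *spp-18* had 20.5, 19.9 and 41.4 FPKM in WT against 18.7, 61.0 and 67.4 FPKM in *alh-4(-)* worms. Replicates 2 and 3 of *alh-4(-)* lay above all WT libraries and replicate 1 below them, and the log2 fold change was 0.71 with all libraries and 1.28 without *alh-4(-)* replicate 1 (unadjusted p = 0.0107 and adjusted p = 0.364 from limma). The other tested *spp* genes *spp-7*, *spp-15*, *spp-16* and *spp-19* had log2 fold changes between -0.23 and 0.35, and the untested *spp-11* and *spp-21* did not exceed 0.424 FPKM. *spp-20* was above 0 in WT replicate 3 alone, at 9.75 FPKM, and gave the second lowest value of the family, -1.14 (95% interval -3.34 to 1.05), from that library only. In the current annotation 8 members overlap a gene on the other strand, namely *lys-8*, *ilys-4*, *spp-1*, *spp-10*, *spp-15*, *spp-16*, *spp-19* and *spp-20*, none of them among the 11 with an unadjusted p under 0.05, and whether the counting used strand is not given in the sources used here.

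The caenacins were low throughout, with 3 of 11 genes above a mean of 10 FPKM. Of the 6 tested, 2 fell and 0 rose, against 1.37% and 1.54% of all tested genes. Of these 2, *cnc-2* had a mean of 0.42 FPKM in *alh-4(-)* worms and entered the test only through WT. *cnc-3* had 38.7, 20.1 and 21.9 FPKM in WT against 0.558, 5.87 and 12.4 FPKM in *alh-4(-)* replicates 1, 2 and 3. The genotypes did not overlap, with *alh-4(-)* replicate 1 far below the rest, and the log2 fold change was -2.35 (standard error 0.76, unadjusted p = 0.0168 and adjusted p = 0.741 from limma). Without *alh-4(-)* replicate 1 it was -1.48 and still past the thresholds, while without WT replicate 1 it was -2.07 with an unadjusted limma p of 0.0534.

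*cnc-2*, the epidermal infection-induced caenacin, had 2.32, 7.36 and 2.61 FPKM in WT against 0, 0.679 and 0.576 FPKM in *alh-4(-)* worms. All *alh-4(-)* libraries were below all WT libraries, and the log2 fold change was -1.75 (standard error 0.49, unadjusted p = 0.00913 and adjusted p = 0.588 from limma). It stayed past the thresholds in each of the 14 alternatives in which it was tested. Epidermal markers were compared beside it. Of 10 such genes, 0 passed the thresholds and 1, *sqt-3* (-0.89), had an unadjusted limma p under 0.05, against 4.97% of all tested genes. The median log2 fold change of the 10 was -0.41, with the lowest at -2.25 for *wrt-2*. It was negative in 8, against 42% of all tested genes. The summed FPKM of these 10 genes was 18627 to 32673 in WT and 21608 to 27270 in *alh-4(-)* worms. The part of these markers in the caenacin values was not tested.

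The more abundant *cnc-8* and the gene *cnc-4* were each set by 1 WT library. *cnc-8* had 69.1, 18.7 and 17.4 FPKM in WT against 24.8, 16.3 and 14.5 FPKM in *alh-4(-)* worms, where WT replicate 1 alone stood apart. The log2 fold change of -0.63 (95% interval -1.90 to 0.65) became 0.00096 without that library. *cnc-4* had 1.33, 24.4 and 15.2 FPKM in WT against 13.1, 20.5 and 11.7 FPKM in *alh-4(-)* worms, and its log2 fold change went from 0.67 to -0.37 without WT replicate 1. *cnc-10* had 1.21, 5.11 and 2.09 FPKM in WT against 1.26, 1.86 and 1.33 FPKM in *alh-4(-)* worms, with overlapping libraries. *cnc-9*, listed at 0 in replicate 1 of both genotypes, had a log2 fold change of 0.09 (95% interval -1.96 to 2.13).

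Many of these genes lie side by side. In the Ensembl annotation of WBcel235, whose build differs from the ce10 assembly used by the authors and whose coordinates are therefore not given, all 50 members were found by symbol, 17 of them on chromosome V, 13 on IV, 12 on X, 4 on I and 2 each on II and III. There, 24 members formed 7 runs with no other protein-coding gene between them. Neighbours often differed widely in level. In the run of *ilys-3*, *ilys-2* and *ilys-1* on chromosome IV, the first and second rose while *ilys-1* was listed at 0. In the run of *lys-4*, *lys-5* and *lys-6* on the same chromosome, *lys-4* had at least 1390 FPKM in every library, while *lys-5* did not exceed 18.98 FPKM and *lys-6* did not exceed 31.3 FPKM. In the run of *lys-1*, *lys-2* and *lys-3* on chromosome V, levels ran from at least 4333 FPKM in *lys-1* to at most 27.5 FPKM in *lys-3*.

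The caenacin run on chromosome V holds *cnc-11*, *cnc-1*, *cnc-5*, *cnc-4*, *cnc-3* and *cnc-2* in this order. The genes that fell, *cnc-3* and *cnc-2*, are its last members and adjacent to each other. Next to *cnc-3* on the other side, *cnc-4* was not called, and *cnc-5*, *cnc-1* and *cnc-11* did not exceed 1.37 FPKM. The *spp* run on chromosome X holds *spp-3*, *spp-2*, *spp-6*, *spp-4* and *spp-5*. Here *spp-4* fell, *spp-3* had a log2 fold change of -0.25 (95% interval -1.15 to 0.65), and *spp-6* was above 0 in 1 library only, at 0.0972 FPKM. Reads of closely related neighbours may have been divided among them, which could not be checked.

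**Figure D3:**
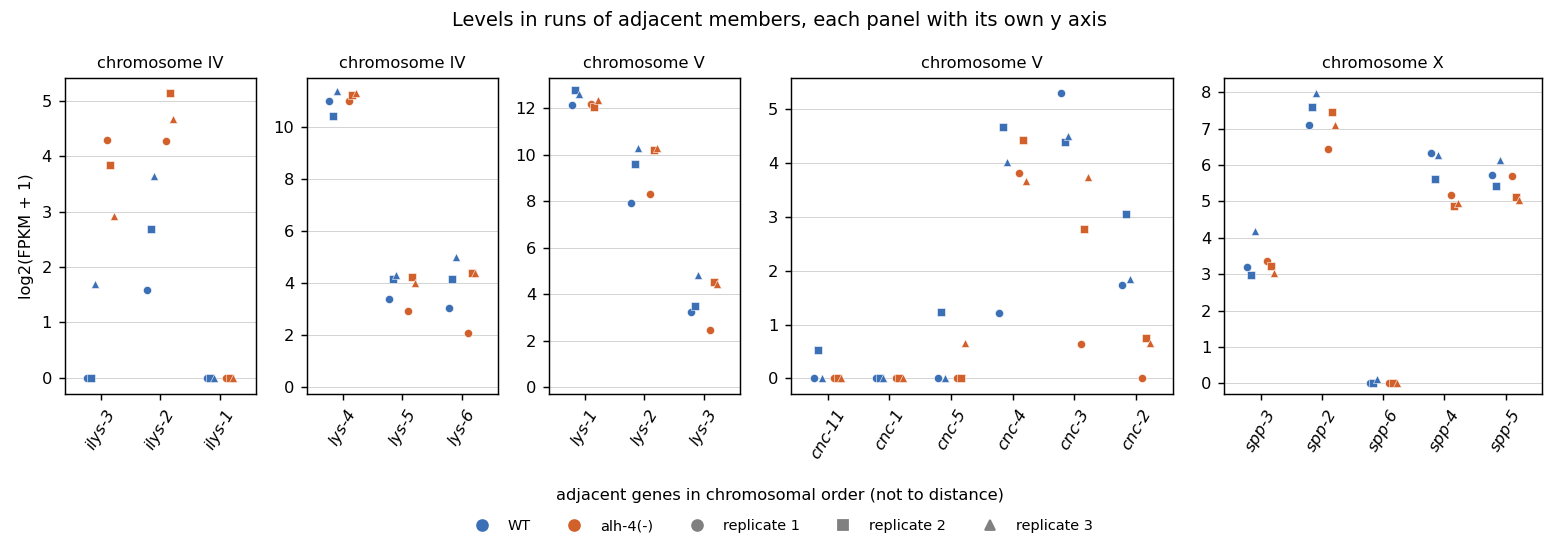
Level of each gene in 5 of the 7 runs of adjacent members on the log2(FPKM + 1) scale (y axis, a separate scale per panel), in chromosomal order (x axis), with colour for the genotype and marker shape for the replicate number. In the first panel *ilys-3* and *ilys-2* are higher in all *alh-4(-)* libraries, in the fourth panel *cnc-3* and *cnc-2* are lower in all of them, and *lys-2* in the third panel is low in replicate 1 of both genotypes.

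Genes of the pathways that regulate such effectors did not pass the thresholds. Of 34 genes for innate immune signalling, including the p38 kinase cascade, the DBL-1 pathway, Toll signalling and transcription factors, 33 were tested. The study's thresholds were passed by 0 of them and 0 had an adjusted p under 0.05. An unadjusted limma p under 0.05 was reached by 1 of the 33, against 4.97% of all tested genes. Their median log2 fold change was 0.10. The p38 kinase gene *pmk-1* had 36.3, 45.6 and 47.6 FPKM in WT against 33.8, 59.1 and 58.5 FPKM in *alh-4(-)* worms (log2 fold change 0.19). The gene *elt-2*, for the GATA factor that drives intestinal genes, had 78.9, 81.8 and 116 FPKM in WT against 59.3, 102 and 94.6 FPKM in *alh-4(-)* worms. The one gene under 0.05 was *daf-16*, for the FOXO factor of insulin signalling, with 168, 185 and 239 FPKM in WT against 240, 371 and 321 FPKM in *alh-4(-)* worms. Its libraries did not overlap, which held for 1 of the 33 genes, against 9.21% of all tested genes. The log2 fold change of *daf-16* was 0.65 (standard error 0.24, unadjusted p = 0.0321 and adjusted p = 0.91 from limma).

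Other antimicrobial and infection-response genes were lower in part. From a list of 34 such genes, 20 were tested. The list was chosen with earlier results of these data known, so its shares are not an independent test. The median log2 fold change of the 20 was -0.62, and 16 were negative, against 42% of all tested genes. By the study's thresholds 6 fell, against 1.37% of all tested genes, and 0 rose. An adjusted p under 0.05 was reached by 0. An unadjusted limma p under 0.05 was reached by 7, all lower in *alh-4(-)* worms, against 1.84% of all tested genes. The lowest p belonged to the epidermal antimicrobial peptide gene *nlp-27*, with 51.2, 49.2 and 31.01 FPKM in WT against 8.60, 10.4 and 7.16 FPKM in *alh-4(-)* worms (log2 fold change -2.18, standard error 0.30, unadjusted p = 0.00014 and adjusted p = 0.069 from limma). The thaumatin gene *thn-2* had 179, 181 and 149.8 FPKM in WT against 63.2, 72.4 and 65.2 FPKM in *alh-4(-)* worms. Its libraries were tightly grouped in each genotype, and the log2 fold change was -1.33 (standard error 0.19, unadjusted p = 0.000219 and adjusted p = 0.0825 from limma).

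The other genes of this list that fell were *dod-24*, *fip-6*, *dod-17* and *fip-5*. *dod-24*, an intestinal infection-response gene, had 170.1, 295 and 429 FPKM in WT against 22.4, 85.6 and 113 FPKM in *alh-4(-)* worms (log2 fold change -2.19). The log2 fold changes were -1.41 for *fip-6*, -1.36 for *dod-17* and -1.27 for *fip-5*, and in each of these genes all *alh-4(-)* libraries lay below all WT libraries. By contrast *nlp-29*, the widely used reporter gene of epidermal infection, had 40.9, 63.5 and 70.6 FPKM in WT against 30.2, 69.0 and 25.2 FPKM in *alh-4(-)* worms, and the genotypes overlapped. In this list 4 tested genes had a positive log2 fold change, namely *nlp-25* (2.30), *irg-2* (1.04), *dod-19* (0.24) and *nlp-33* (0.04). *dod-19*, the most abundant of the list, had 3091, 2107 and 3128 FPKM in WT. It had 3215, 3205 and 3276 FPKM in *alh-4(-)* worms, without overlap. Without both replicate 1 libraries 6 genes of this list passed the thresholds, and in the other alternatives between 4 and 8.

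**Figure D4:**
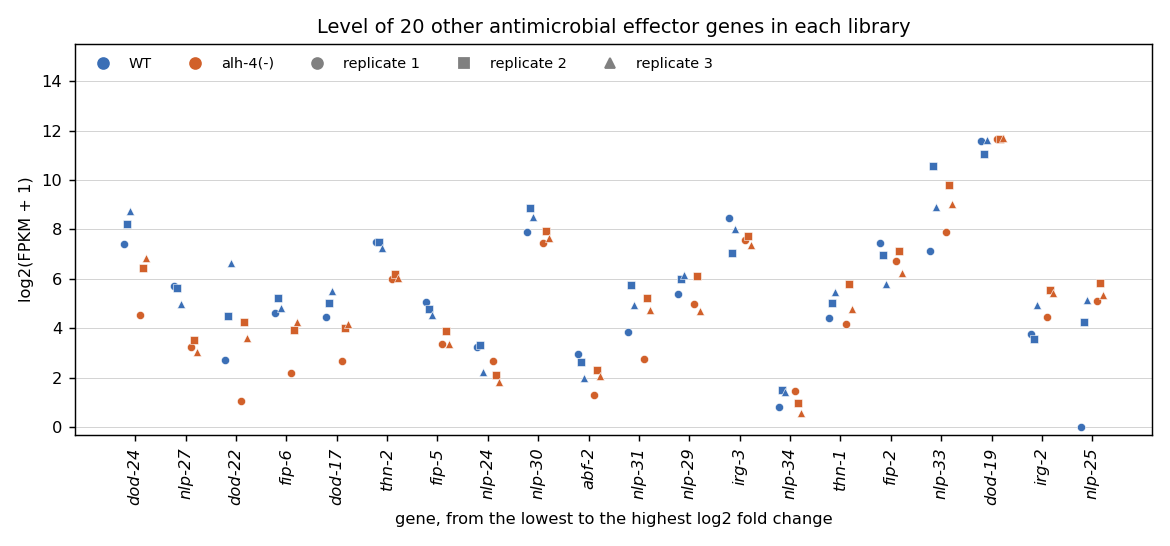
Level of each tested gene from the list of other antimicrobial and infection-response genes in each library on the log2(FPKM + 1) scale (y axis), ordered by log2 fold change (x axis), with colour for the genotype and marker shape for the replicate number. *nlp-27*, *thn-2* and *dod-24* are lower in all *alh-4(-)* libraries.

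The expected tissues were present in all libraries. Of 10 intestinal markers, 0 had an unadjusted limma p under 0.05, their median log2 fold change was -0.13, and their summed FPKM was 16237 to 26010 in WT and 15532 to 23150 in *alh-4(-)* worms. Of 10 pharyngeal markers 2 rose by the study's thresholds, against 1.54% of all tested genes, and 6 had a negative log2 fold change. These were *phat-1* (8.90, 19.9 and 5.58 FPKM in WT against 17.2, 36.6 and 25.1 FPKM in *alh-4(-)* worms) and *phat-5* (3.58, 9.76 and 0.405 FPKM in WT against 15.3, 16.9 and 12.9 FPKM in *alh-4(-)* worms), while the related *phat-3* had 73.8, 79.7 and 31.7 FPKM in WT against 50.1, 101.8 and 56.3 FPKM in *alh-4(-)* worms and did not pass. The summed FPKM of the pharyngeal list was 17621 to 36621 in WT and 19625 to 23758 in *alh-4(-)* worms, and its median log2 fold change was -0.38. Body wall muscle markers gave 0 of 8 and germline markers 0 of 10 past the thresholds. No marker of any of the 6 lists was at 0 in all libraries. The part of the pharyngeal markers in the rise of *ilys-2*, *ilys-3* and *spp-12* was not tested.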

How the data were processed

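RNA of whole L4 worms was sequenced by the authors from 3 replicates of WT and 3 of *alh-4(-)* worms, with Smart-seq2 libraries. Per the methods, reads were mapped to ce10 and summarized over the Illumina iGenome gene models, and the authors deposited 1 FPKM value per gene for each library. The submitters' processing notes name bcl2fastq 2.19, Trimmomatic 0.36, HISAT2 2.1.0, SAMtools 1.3 and StringTie 1.3.3. No read counts were used and the depth is unknown, so no interval from counting is given. An FPKM listed at 0 can be a failed estimate.

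Values were transformed to log2(FPKM + 1), and genes whose FPKM averaged 1 or more over the libraries were fitted with limma 3.58.1 in R 4.3.3 (eBayes with a mean-variance trend), with two-sided p adjusted by Benjamini-Hochberg over all 16225 tested genes. The study's negative binomial test needs counts and was not run. Gene order came from the Ensembl 115 annotation of WBcel235. Tables and figures were made with Python 3.11.15, pandas 2.3.3 and Matplotlib 3.10.9. The fit was tested on simulated data.

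Named members were those with an unadjusted p under 0.05, the 3 highest levels and the 2 highest and 2 lowest log2 fold changes of each family, and those whose genotypes did not overlap. *lys-7*, *lys-8*, *spp-5*, *spp-8*, *spp-14*, *spp-17*, *spp-18*, *cnc-10*, members named for their place in a run and genes of the other lists named with values were added after their values were seen. Members and lists were chosen with earlier results of these data known.

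The alternatives were a pseudocount of 0.1, no filter, a filter at a mean of 10 FPKM, upper quartile scaling, quantile normalization, array quality weights, eBayes without its trend, a block for the replicate number, and fits without any 1 library or without both replicate 1 libraries.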

Additional observations from a re-analysis of the deposited data

How the results depend on the processing

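In no alternative did any member reach an adjusted limma p under 0.05, and in none did one of the 8 members past the study's thresholds change direction. The number past the thresholds was 7 to 10 over the alternatives with all libraries, except 5 with a mean FPKM of at least 10 (1 of them higher), where 29 members were tested. Without a filter 7 members passed, 3 of them lower. With each library left out it was between 4 (without WT replicate 1) and 8, with 2 to 3 higher and 1 to 5 lower. Members at an unadjusted p under 0.05 numbered 7 without a filter, 6 with a mean FPKM of at least 10, and 6 to 12 with each library left out. The median log2 fold change of *ilys* was 0.20 both without a filter and with a mean FPKM of at least 10, where other members entered or left the test.

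The number of all genes with an adjusted p under 0.05, 23 in the main comparison, was 11 without a filter, 36 after quantile normalization, 91 with array quality weights, and 6 to 25 with each library left out. Genes past the study's thresholds, 473 in the main comparison, numbered 266 with a mean FPKM of at least 10, 894 with array quality weights, 774 without both replicate 1 libraries, and 363 to 950 with each library left out. The causes were not tested. Upper quartile scaling moved the median log2 fold change of all genes from 0.07 to -0.15, and under it *cnc-9* (-0.074), *ilys-4* (-0.034) and *lys-4* (-0.0036) turned negative. *lys-10* turned to 0.70 with array quality weights and *cnc-4* to -0.30 without both replicate 1 libraries. With each library left out, the log2 fold change ran from -0.37 to 1.35 for *cnc-4*, from -0.96 to 0.00096 for *cnc-8*, from -0.64 to 0.86 for *cnc-9*, from -0.35 to 0.96 for *lys-2*, from -2.41 to 0.88 for *lys-10*, from -0.016 to 0.47 for *lys-4*, from -0.23 to 0.15 for *spp-10* and from -0.0073 to 0.40 for *ilys-4*.

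Replicate numbers are shared by the genotypes, and the deviations of same-numbered libraries correlated by 0.31, 0.28 and 0.00 for replicates 1, 2 and 3. The crossed pairs of replicates 1 and 2 correlated by -0.31 and -0.29, and those with replicate 3 by -0.15 to 0.17. Same-numbered libraries thus deviated alike for replicates 1 and 2 but not for replicate 3. Deviations were taken from the mean of each genotype, so these correlations depend on each other and are not separate evidence. The main fit did not take the libraries as paired. With the replicate number as a block, 7 members passed the study's thresholds, all of them among the 8, and 15 of all genes had an adjusted p under 0.05.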
